A study of Mus musculus with 14 samples.

Results

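The mitochondrial ribosomal proteins described here are the protein-coding genes whose mouse symbol starts with Mrpl or Mrps and a digit, and 78 of the 47729 gene rows in the count files met this rule. They comprise 49 Mrpl and 29 Mrps genes, all of them encoded in the nucleus. They were measured by mRNA sequencing of whole mouse kidney in 14 libraries of 4 groups. The SMOC2-labelled UUO group has 4 libraries from mice labelled SMOC2 transgenic, taken 7 days after unilateral ureteral obstruction (UUO), a surgical closure of the outflow of one kidney that leads to tubular injury and fibrosis. The wild-type UUO group has 4 libraries at 7 days of the same obstruction. The SMOC2-labelled normal group and the wild-type normal group have 3 libraries each from kidneys with no treatment. SMOC2 is a secreted matrix protein. The labels name neither the promoter of the transgene nor the age of the mice, nor whether a library holds 1 animal. The p-values below therefore measure only how these libraries spread, part of which may be technical. A treatment protocol attached to every library describes folic acid in male Balb/c mice, which differs from the group labels, and the groups here follow the genotype and treatment labels.

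Mitochondria carry their own ribosome, which makes the few proteins encoded by mitochondrial DNA, all of them core subunits of the respiratory chain and ATP synthase. Its ribosomal RNAs come from mitochondrial DNA, while its proteins are encoded in the nucleus, made in the cytosol and imported. Large-subunit proteins form the peptidyl transferase side, the stalk that recruits translation factors and the exit tunnel, and small-subunit proteins hold the messenger RNA and the decoding site. Many of these proteins have bacterial counterparts and others are found only in mitochondria. Kidney tubules, above all the proximal tubule, are among the tissues richest in mitochondria.

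Total counts ran from 19483994 to 30033405 per library, and the members took 0.291% to 0.361% of them. Levels are given as CPM, that is counts relative to a library size scaled by the trimmed mean of M-values (TMM), and a member is called higher or lower at a Benjamini-Hochberg adjusted p under 0.05 in edgeR's quasi-likelihood test over 17926 genes. The scaling matters for these comparisons, because the TMM factors were 1.133 to 1.196 in the UUO libraries and 0.80 to 0.855 in the normal ones. Smoc2 RNA, the check of the genotype label, was 96.1 ± 18.5 CPM in SMOC2-labelled UUO and 147 ± 11.4 CPM in wild-type UUO libraries (SD, n = 4 each). In normal kidneys Smoc2 was 21.8 ± 9.66 CPM in the SMOC2-labelled and 25.2 ± 16.1 CPM in the wild-type libraries (SD, n = 3 each). Smoc2 was thus not higher under the transgenic label, with edgeR adjusted p of 0.389 in UUO and 0.85 in normal kidneys, and the groups are named below by their labels.

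Most mitochondrial ribosomal protein mRNAs were lower after obstruction, under both genotype labels. In SMOC2-labelled kidneys 67 of the 77 members that could be tested fell, 1 rose and 9 were not called, against a background of 30.4% of all genes called lower and 32.5% called higher. In wild-type kidneys 64 fell, 1 rose and 12 were not called, against a background of 29.8% lower and 31.3% higher. The median log2 change of the members was -0.632 in SMOC2-labelled and -0.618 in wild-type kidneys, where the median of all genes tested was 0.0365 and 0.0455. The untested member is Mrpl53, which had 0 to 4 counts per library and shares 88% of its exon bases with the gene model Gm42688 on the same strand.

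The libraries separated in the same way as the calls. All SMOC2-labelled UUO libraries lay below all SMOC2-labelled normal libraries for 62 members and above them for 1, where 30.1% of all genes lay below and 32.6% above. In wild-type kidneys all UUO libraries lay below all normal ones for 67 members and above for 1, against 29.5% and 31.3% of all genes. With libraries scaled by total counts alone, 31 members were lower and 9 higher in SMOC2-labelled kidneys and 28 lower and 10 higher in wild-type kidneys. That setting moved the median of all genes to 0.536 and 0.515, and the members' median lay 0.667 and 0.664 below it on the log2 scale, a distance that a change of scaling leaves in place by construction.

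The same members moved under both labels. Of the 77, 64 fell in both comparisons and Mrpl33 rose in both. Mrpl24, Mrps18c and Mrps33 were called lower in SMOC2-labelled kidneys and did not pass in wild-type kidneys, a difference that the interaction test reported further on did not call for any member. Mrpl24 has 26.3% of its exon bases antisense to Rrnad1. The members called in neither were Mrpl19, Mrpl23, Mrpl36, Mrpl40, Mrpl52, Mrps10, Mrps17, Mrps18b and Mrps27. Across the 77 genes the log2 changes under the 2 labels, which share no libraries, had a Pearson r of 0.934 and a Spearman rho of 0.891, given as a description. The log2 changes differed between labels by a median of 0.0733 and by at most 0.352, for Mrps28.

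**Figure D1:**
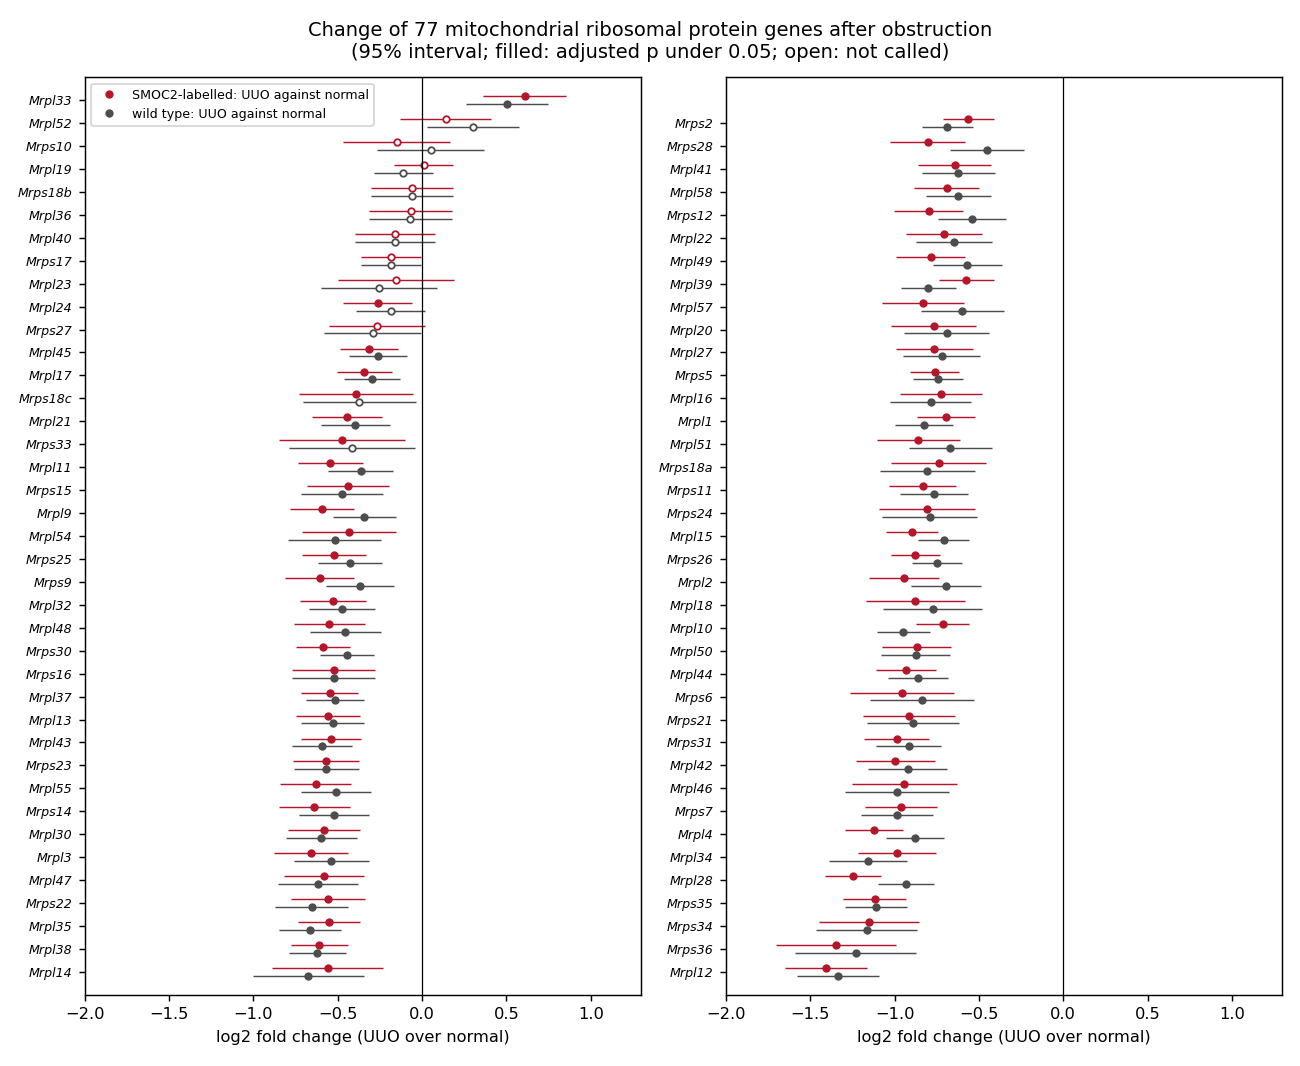
Log2 change (UUO over normal) of each of the 77 tested members, one row per gene, with 95% intervals, for SMOC2-labelled and wild-type kidneys. Nearly all members lie left of 0 under both labels, from -1.41 for Mrpl12 in SMOC2-labelled kidneys up to 0.61 for Mrpl33.

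Mrpl12 fell furthest. It encodes the L7/L12-type protein of the stalk, through which translation factors reach the ribosome, and lies on chr11:120484613-120489065 (plus strand, GRCm38, ENSMUSG00000039640). Its level was 46.2, 52.5, 60.3 and 51.5 CPM in SMOC2-labelled UUO libraries and 44.5, 56.5, 49.3 and 57.0 CPM in wild-type UUO libraries, against 139, 138 and 141 CPM in SMOC2-labelled normal and 124, 153 and 116 CPM in wild-type normal libraries. No UUO library reached the level of any normal library. In Mrpl12, 13.1% of the exon bases lie antisense to Gm16755. The log2 change was -1.41 in SMOC2-labelled kidneys (SE 0.114, 95% interval -1.65 to -1.16, edgeR adjusted p = 1.61e-07) and -1.33 in wild-type kidneys (SE 0.114, 95% interval -1.58 to -1.09, adjusted p = 2.84e-07).

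Mrps36 showed the next largest fall. Despite its name, its product is a component of the 2-oxoglutarate dehydrogenase complex of the citric acid cycle and is not found in the mitochondrial ribosome. Mrps36 (chr13:100735955-100744659, minus strand) was at 5.42, 5.90, 8.06 and 8.81 CPM in SMOC2-labelled UUO libraries and 6.29, 7.81, 6.26 and 7.27 CPM in wild-type UUO libraries, against 15.8, 18.9 and 19.1 CPM in SMOC2-labelled normal and 18.2, 16.0 and 14.5 CPM in wild-type normal libraries. Every UUO library was below every normal one, and the log2 change was -1.35 in SMOC2-labelled (SE 0.167, edgeR adjusted p = 7.83e-06) and -1.23 in wild-type kidneys (SE 0.166, adjusted p = 1.97e-05).

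Mrps35 and Mrps34, both small-subunit proteins that bacteria lack, followed. Mrps35 (chr6:147042764-147073991, plus strand) was at 28.2, 28.7, 35.4 and 27.8 CPM in SMOC2-labelled UUO and 27.8, 31.2, 29.1 and 31.8 CPM in wild-type UUO libraries, against 62.7, 65.7 and 67.2 CPM in SMOC2-labelled normal and 63.5, 67.5 and 63.0 CPM in wild-type normal libraries. The groups lay far apart relative to their spread, with log2 changes of -1.12 in SMOC2-labelled (edgeR adjusted p = 1.12e-07) and -1.11 in wild-type kidneys (adjusted p = 1.36e-07). Mrps34 (chr17:24895116-24897502, plus strand) averaged 7.2 ± 1.24 CPM in SMOC2-labelled UUO and 5.73 ± 0.458 CPM in wild-type UUO libraries (SD, n = 4 each), against 16.0 ± 1.84 CPM in SMOC2-labelled normal and 12.9 ± 1.03 CPM in wild-type normal libraries (SD, n = 3 each). Its log2 change was -1.15 in SMOC2-labelled and -1.16 in wild-type kidneys, but 63.4% of its exon bases lie antisense to Mapk8ip3 and 37.0% overlap Nme3 on the same strand, so its counts are uncertain without the strand setting of the counting.

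Mrpl28, Mrpl4 and Mrpl34, also bacterial-type large-subunit proteins, were each among the 6 largest falls under at least 1 label. Mrpl28 (chr17:26123500-26126613, plus strand) was at 36.2, 38.4, 41.4 and 39.5 CPM in SMOC2-labelled UUO and 40.8, 43.5, 44.8 and 47.8 CPM in wild-type UUO libraries, against 86.5, 92.7 and 97.6 CPM in SMOC2-labelled normal and 83.7, 91.3 and 77.9 CPM in wild-type normal libraries. Its log2 change was -1.25 in SMOC2-labelled (edgeR adjusted p = 2.27e-08) and -0.93 in wild-type kidneys (adjusted p = 2.29e-07). Mrpl4 (chr9:21002738-21008839, plus strand), which lines the exit tunnel, averaged 47.7 ± 4.85 CPM in SMOC2-labelled UUO and 45.9 ± 2.46 CPM in wild-type UUO libraries (SD, n = 4 each), against 104 ± 4.50 CPM in SMOC2-labelled normal and 84.3 ± 4.47 CPM in wild-type normal libraries (SD, n = 3 each), a log2 change of -1.12 and -0.878. For both genes no UUO library overlapped a normal one.

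Mrpl34, a short protein of bacterial type encoded on chr8:71464959-71465747 (plus strand), was at 27.9, 28.1, 33.7 and 23.5 CPM in SMOC2-labelled UUO and 24.6, 24.5, 27.7 and 25.2 CPM in wild-type UUO libraries, against 52.8, 54.5 and 61.0 CPM in SMOC2-labelled normal and 54.4, 62.9 and 53.8 CPM in wild-type normal libraries. The fall on the log2 scale was -0.987 in SMOC2-labelled (edgeR adjusted p = 2.4e-06) and -1.16 in wild-type kidneys (adjusted p = 6.11e-07). Mrps7, a bacterial-type protein of the head of the small subunit, was at 52.5, 54.2, 56.6 and 53.7 CPM in SMOC2-labelled UUO and 45.8, 50.8, 47.8 and 50.8 CPM in wild-type UUO libraries, against 98.7, 111 and 107 CPM in SMOC2-labelled normal and 87.8, 118 and 84.5 CPM in wild-type normal libraries. Both falls of Mrps7 were close in size, at -0.96 and -0.987, and 11.9% of its exon bases lie antisense to Gga3 and Mif4gd.

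Upstream DNA is shown for 2 of these large-subunit genes, Mrpl12 as the member with the strongest fall and Mrpl34 as one that holds the motif marked below, from the RefSeq promoter windows (GRCm38.p6, plus strand, 150 bases each, 5′ to 3′). It covers chr11:120484463-120484612 for Mrpl12, up to the GENCODE start given above, and chr8:71464776-71464925 for Mrpl34, up to its RefSeq start, which lies upstream of the GENCODE start given above. Capitals mark CCGGAAG, the core recognised by ETS factors such as GABPA, which is in the Mrpl34 stretch and whose letters are not in the Mrpl12 stretch.
Mrpl12: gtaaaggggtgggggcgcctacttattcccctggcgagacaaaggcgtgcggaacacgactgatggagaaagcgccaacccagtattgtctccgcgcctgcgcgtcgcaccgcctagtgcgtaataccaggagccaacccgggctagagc
Mrpl34: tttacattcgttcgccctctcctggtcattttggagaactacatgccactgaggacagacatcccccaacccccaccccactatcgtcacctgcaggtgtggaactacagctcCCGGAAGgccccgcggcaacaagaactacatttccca

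**Figure D2:**
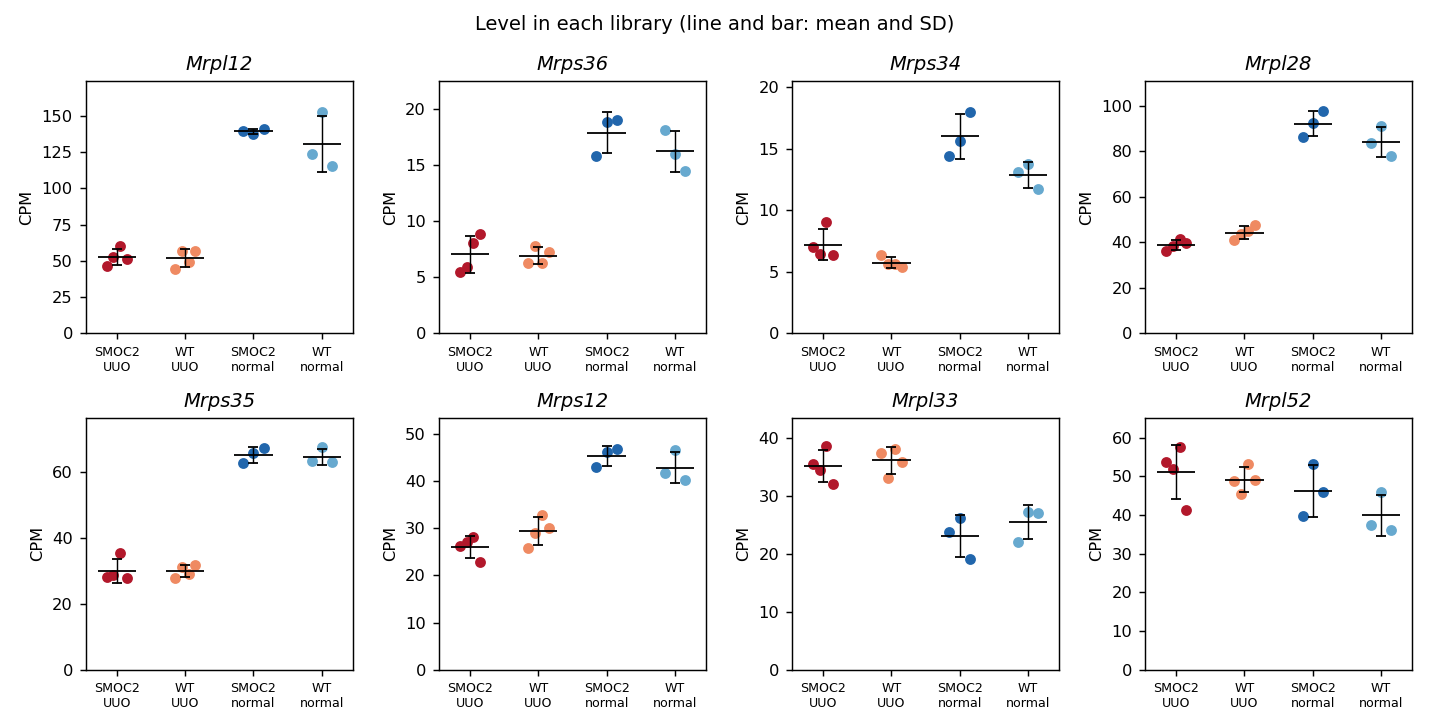
Level in CPM in each of the 14 libraries for 8 members, with group means and SD, from left to right SMOC2-labelled UUO, wild-type UUO, SMOC2-labelled normal and wild-type normal. The UUO libraries lie below the normal ones for Mrpl12, Mrps36, Mrps34, Mrpl28, Mrps35 and Mrps12, lie above them for Mrpl33, and overlap them for Mrpl52.

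Mrpl33 was the member that rose. It is a short bacterial-type protein of the large subunit, and its annotated gene spans chr5:31596935-31664384 (plus strand, ENSMUSG00000106918) with 7326 exon bases in all. Its level was 35.4, 34.5, 38.5 and 31.9 CPM in SMOC2-labelled UUO and 37.4, 33.0, 38.1 and 35.8 CPM in wild-type UUO libraries, against 23.7, 26.2 and 19.2 CPM in SMOC2-labelled normal and 22.1, 27.3 and 27.0 CPM in wild-type normal libraries. Every UUO library was above every normal library. The log2 change was 0.61 in SMOC2-labelled (SE 0.114, 95% interval 0.36 to 0.85, edgeR adjusted p = 0.000347) and 0.50 in wild-type kidneys (SE 0.113, 95% interval 0.26 to 0.75, adjusted p = 0.00148), and it was called under every alternative run.

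Mrpl52, a mitochondria-specific protein of the central protuberance of the large subunit, had the next highest changes. It was at 53.6, 51.9, 57.5 and 41.2 CPM in SMOC2-labelled UUO and 48.7, 45.4, 53.2 and 49.2 CPM in wild-type UUO libraries, against 39.8, 53.2 and 45.8 CPM in SMOC2-labelled normal and 37.5, 46.0 and 36.2 CPM in wild-type normal libraries. The groups overlapped under both labels, and the log2 change was 0.14 in SMOC2-labelled (95% interval -0.13 to 0.41, edgeR adjusted p = 0.344) and 0.30 in wild-type kidneys (95% interval 0.03 to 0.57, adjusted p = 0.0522). The wild-type value crosses the threshold when wild-type normal replicate 2 is left out (0.413, adjusted p = 0.0196) or wild-type UUO replicate 2 is left out (0.352, adjusted p = 0.0408). The 150 bases before its start, chr14:54426759-54426908 (plus strand, GRCm38.p6), also hold the ETS core, here as its reverse complement CTTCCGG in capitals. Whether these letters bear on the change was not tested.
Mrpl52: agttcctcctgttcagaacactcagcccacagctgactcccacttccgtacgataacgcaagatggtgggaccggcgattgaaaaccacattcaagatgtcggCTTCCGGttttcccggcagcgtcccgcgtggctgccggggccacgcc

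The other members with the highest changes lay near 0. Mrpl36, another short bacterial-type protein, was at 29.2, 29.2, 33.3 and 24.4 CPM in SMOC2-labelled UUO and 25.7, 27.5, 29.6 and 29.0 CPM in wild-type UUO libraries, against 26.1, 33.9 and 31.2 CPM in SMOC2-labelled normal and 27.5, 32.8 and 27.7 CPM in wild-type normal libraries. Its log2 change of -0.0686 in SMOC2-labelled kidneys had a 95% interval of -0.32 to 0.18, which takes no account of its choice as an extreme. Mrpl19, a bacterial-type protein at the subunit interface, was at 23.1, 23.8, 23.5 and 19.8 CPM in SMOC2-labelled UUO and 22.8, 22.6, 20.3 and 22.6 CPM in wild-type UUO libraries, against 22.3, 22.4 and 22.4 CPM in SMOC2-labelled normal and 23.4, 25.2 and 23.1 CPM in wild-type normal libraries. Its log2 change was 0.0101 and -0.11 (edgeR adjusted p = 0.923 and 0.256), and 36.0% of its exon bases lie antisense to Gcfc2. Mrps10, a bacterial-type protein of the head of the small subunit, was at 17.6, 21.8, 22.7 and 20.9 CPM in SMOC2-labelled UUO and 19.3, 18.7, 23.8 and 16.5 CPM in wild-type UUO libraries, against 28.8, 21.3 and 19.1 CPM in SMOC2-labelled normal and 19.0, 19.6 and 18.2 CPM in wild-type normal libraries. Its groups overlapped under both labels, and the log2 change was -0.151 and 0.0523. Scaled by total counts alone, the log2 changes in SMOC2-labelled and wild-type kidneys, in that order, were 0.432 and 0.403 for Mrpl36, 0.51 and 0.36 for Mrpl19 and 0.346 and 0.526 for Mrps10, all called higher except that of Mrps10 in SMOC2-labelled kidneys (edgeR adjusted p = 0.0586).

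Mrps18a, Mrps18b and Mrps18c form the one gene family among the members in which 3 genes descend from a single bacterial protein, S18, and they differed in their changes. Mrps18a, whose product sits in the large subunit, was at 52.6, 55.03, 57.5 and 54.8 CPM in SMOC2-labelled UUO and 48.7, 49.1, 48.7 and 51.0 CPM in wild-type UUO libraries, against 75.6, 108 and 92.1 CPM in SMOC2-labelled normal and 86.5, 106 and 66.8 CPM in wild-type normal libraries. It fell by 0.739 in SMOC2-labelled (edgeR adjusted p = 0.000218) and by 0.806 in wild-type kidneys (adjusted p = 0.000108) on the log2 scale. Mrps18b, a small-subunit protein, was at 14.1, 13.6, 13.5 and 15.9 CPM in SMOC2-labelled UUO and 14.1, 13.3, 11.8 and 15.05 CPM in wild-type UUO libraries, against 14.7, 14.5 and 15.4 CPM in SMOC2-labelled normal and 12.7, 16.3 and 13.4 CPM in wild-type normal libraries. Its log2 change was -0.0608 in SMOC2-labelled (95% interval -0.30 to 0.18) and -0.0596 in wild-type kidneys, with overlapping groups, and 30.5% of its exon bases lie antisense to Gm16279. For Mrps18c, also in the small subunit, 23.2% of the exon bases overlap Gm43511 on the same strand, so its counts are uncertain. Mrps18c averaged lower after UUO, with a log2 change of -0.392 in SMOC2-labelled (adjusted p = 0.0413) and -0.373 in wild-type kidneys (adjusted p = 0.0515). Its SMOC2-labelled call was lost without normal replicate 1 (-0.378, adjusted p = 0.0946) or 3 (-0.299, adjusted p = 0.164), or without UUO replicate 1 (-0.381, adjusted p = 0.0774), 2 (-0.34, adjusted p = 0.1) or 4 (-0.335, adjusted p = 0.101), and without wild-type normal replicate 3 the wild-type value passed (-0.494, adjusted p = 0.0217). The differences between the family members were not tested.

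The falls ran through every structural region of the ribosome for which a list was drawn up, with exceptions in each of the larger ones. These region lists were written after the values were seen and are given as counts. The large subunit had 44 of 50 tested members lower in SMOC2-labelled and 43 of 50 in wild-type kidneys, each with a median log2 change of -0.62. The small subunit had 22 of 26 lower with a median of -0.623 in SMOC2-labelled and 20 of 26 lower with a median of -0.555 in wild-type kidneys. Mrps30 and Mrps18a were counted with the large subunit, where their products are found. Members with a bacterial homolog were lower in 40 of 46 cases in SMOC2-labelled and 38 of 46 in wild-type kidneys, and mitochondria-specific members in 26 of 30 and 25 of 30, with medians between -0.635 and -0.598. Of the short bacterial-type proteins Mrpl32 to Mrpl36, 3 fell under both labels, Mrpl33 rose and Mrpl36 was not called.

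The stalk proteins Mrpl10, Mrpl11 and Mrpl12 all fell under both labels. Mrpl10, which anchors the stalk, was at 62.1, 65.5, 61.3 and 66.8 CPM in SMOC2-labelled UUO and 53.5, 66.4, 56.8 and 55.8 CPM in wild-type UUO libraries, against 105, 102 and 108 CPM in SMOC2-labelled normal and 115, 112 and 111 CPM in wild-type normal libraries. Of the Mrpl10 exon bases, 14.1% lie antisense to Gm11574. Mrpl11, at the stalk base, changed least of the 3, by -0.543 in SMOC2-labelled and -0.364 in wild-type kidneys on the log2 scale. In the central protuberance, which contacts the small subunit, Mrpl18, Mrpl38, Mrpl46 and Mrpl48 fell under both labels while Mrpl40 and Mrpl52 were not called. Mrpl46 averaged 25.4 ± 1.96 CPM in SMOC2-labelled UUO and 27.2 ± 5.57 CPM in wild-type UUO libraries (SD, n = 4 each), against 48.8 ± 2.11 CPM in SMOC2-labelled normal and 53.9 ± 9.89 CPM in wild-type normal libraries (SD, n = 3 each).

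Around the exit of the tunnel, where new chains leave toward the inner membrane, a list of 7 members held Mrpl17, Mrpl22, Mrpl23, Mrpl24, Mrpl44, Mrpl45 and Mrpl47 and left out Mrpl4, described above, and 6 of the 7 fell in SMOC2-labelled and 5 of 7 in wild-type kidneys, with medians of -0.342 and -0.297. Mrpl44, which has an RNase III-like fold and is mutated in a human cardiomyopathy, changed most of these 7, at 26.2, 26.6, 26.5 and 25.0 CPM in SMOC2-labelled UUO and 24.1, 25.2, 24.3 and 27.2 CPM in wild-type UUO libraries, against 47.1, 49.997 and 52.2 CPM in SMOC2-labelled normal and 42.6, 52.1 and 42.5 CPM in wild-type normal libraries. Its log2 change was -0.932 in SMOC2-labelled (edgeR adjusted p = 3.52e-07) and -0.859 in wild-type kidneys (adjusted p = 8.28e-07). Mrpl45, which binds near the tunnel exit at the membrane, changed by -0.315 in SMOC2-labelled and -0.261 in wild-type kidneys with TMM, and with total counts alone it was called higher under both labels. Mrpl23, a bacterial-type protein of the tunnel rim, was at 5.88, 5.15, 5.83 and 6.49 CPM in SMOC2-labelled UUO and 5.17, 5.52, 7.07 and 5.21 CPM in wild-type UUO libraries, against 5.51, 6.99 and 6.98 CPM in SMOC2-labelled normal and 7.32, 7.55 and 5.73 CPM in wild-type normal libraries, and was not called.

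At the decoding site and messenger RNA channel, Mrps2, Mrps5, Mrps12 and Mrps24 fell under both labels, with a median of -0.78 in SMOC2-labelled and -0.715 in wild-type kidneys. Mrps12 is the counterpart of bacterial S12, the protein at the decoding centre. It was at 26.2, 27.1, 28.03 and 22.8 CPM in SMOC2-labelled UUO and 25.8, 28.9, 32.8 and 30.1 CPM in wild-type UUO libraries, against 43.0, 46.2 and 46.7 CPM in SMOC2-labelled normal and 41.6, 46.6 and 40.3 CPM in wild-type normal libraries. Its log2 change was -0.798 in SMOC2-labelled (edgeR adjusted p = 5.3e-06) and -0.542 in wild-type kidneys (adjusted p = 0.000194).

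Mrpl3 and Mrps22, both mutated in human mitochondrial disease, and Mrpl58, the peptidyl-tRNA hydrolase that rescues stalled ribosomes and is also built into the large subunit, fell as well. Mrpl3 was at 31.0, 29.4, 27.3 and 29.2 CPM in SMOC2-labelled UUO and 30.2, 30.9, 27.5 and 36.2 CPM in wild-type UUO libraries, against 42.5, 43.8 and 52.1 CPM in SMOC2-labelled normal and 44.4, 49.7 and 41.7 CPM in wild-type normal libraries. Mrps22, a mitochondria-specific small-subunit protein, was at 18.1, 19.9, 16.9 and 20.3 CPM in SMOC2-labelled UUO and 21.7, 17.3, 17.9 and 19.8 CPM in wild-type UUO libraries, against 24.4, 30.2 and 28.2 CPM in SMOC2-labelled normal and 30.2, 30.8 and 29.5 CPM in wild-type normal libraries. Mrpl58 was at 39.9, 42.2, 48.3 and 40.7 CPM in SMOC2-labelled UUO and 43.0, 45.0, 41.6 and 41.2 CPM in wild-type UUO libraries, against 64.7, 74.4 and 68.2 CPM in SMOC2-labelled normal and 61.9, 74.7 and 60.8 CPM in wild-type normal libraries. In none of these 3 genes did a UUO library reach a normal one, and the log2 changes were -0.659 and -0.538 for Mrpl3, -0.557 and -0.654 for Mrps22, and -0.691 and -0.622 for Mrpl58, in SMOC2-labelled and wild-type kidneys in that order.

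Per kilobase of exon, the tested members with the highest mean level over all 14 libraries, UUO and normal pooled, were Mrps21 at 72.4, Mrpl34 at 65.3, Mrpl12 at 57.3 and Mrpl54 at 54.8 CPM per kilobase. The lowest were Mrpl23 at 1.26, Mrps10 at 2.54, Mrpl48 at 2.67 and Mrpl47 at 4.07 CPM per kilobase. The order depends on the state, since in the normal groups Mrpl33 was at 3.15 CPM per kilobase in SMOC2-labelled and 3.48 in wild-type libraries and so below Mrpl47 at 4.93 and 5.18. Mrps21, a small-subunit protein of bacterial type, was at 37.1, 36.1, 46.6 and 43.3 CPM in SMOC2-labelled UUO and 35.1, 42.0, 34.8 and 36.7 CPM in wild-type UUO libraries, against 69.1, 86.3 and 75.3 CPM in SMOC2-labelled normal and 65.2, 83.1 and 58.8 CPM in wild-type normal libraries. Mrpl54 was at 40.3, 42.6, 49.9 and 35.8 CPM in SMOC2-labelled UUO and 36.2, 38.4, 34.9 and 32.3 CPM in wild-type UUO libraries, against 49.5, 64.9 and 56.2 CPM in SMOC2-labelled normal and 49.1, 59.7 and 43.7 CPM in wild-type normal libraries. The SMOC2-labelled groups overlapped for Mrpl54, and its log2 change of -0.433 (edgeR adjusted p = 0.00919) was -0.325 without SMOC2-labelled normal replicate 3 (adjusted p = 0.0597). Among the lowest, Mrpl47, near the tunnel exit, and Mrpl48, of the central protuberance, fell under both labels, with log2 changes of -0.583 and -0.55 in SMOC2-labelled and of -0.618 and -0.455 in wild-type kidneys, whereas Mrpl23 and Mrps10 were not called. Over the 77 members the mean log2 change had a Pearson r of -0.201 with the mean log2 level and of 0.237 with exonic length, as a description.

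The other genes of mitochondrial translation were lower too. All 5 ribosomal proteins of mitochondria that carry other names, Dap3, Ptcd3, Chchd1, Aurkaip1 and Gadd45gip1, fell under both labels, with a median log2 change of -0.589 in SMOC2-labelled and -0.646 in wild-type kidneys. Dap3, a small-subunit GTP-binding protein, averaged 52.3 ± 2.29 CPM in SMOC2-labelled UUO and 53.7 ± 1.05 CPM in wild-type UUO libraries (SD, n = 4 each), against 78.6 ± 4.91 CPM in SMOC2-labelled normal and 88.1 ± 9.11 CPM in wild-type normal libraries (SD, n = 3 each). All 16 genes of a list of translation factors fell under both labels, with medians of -0.725 and -0.759. That list is a mixed one, since it also holds Mtfmt, Lrpprc, Slirp, Oxa1l and Letm1, which are not translation factors in the strict sense. Gfm1, the mitochondrial elongation factor G, changed by -1.43 in SMOC2-labelled and -1.50 in wild-type kidneys, and Tufm, the elongation factor Tu, by -1.30 and -1.05.

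Of 20 genes listed as mitochondrial aminoacyl-tRNA synthetases, 16 fell in SMOC2-labelled and 19 in wild-type kidneys, with medians of -0.526 and -0.576. Synthetases charge the transfer RNAs, and the list also holds Gatb, Gatc and Qrsl1, which encode subunits of a transfer RNA amidotransferase. Lars2 changed by -2.02 in SMOC2-labelled and 1.13 in wild-type kidneys, and the edgeR interaction test called none of the 20. Assembly factors and ribosomal RNA modifying enzymes were lower in 16 of 26 cases in SMOC2-labelled kidneys, with none higher, and in 18 of 26 in wild-type kidneys, where Mettl17 was higher (0.30, edgeR adjusted p = 0.0333). The largest changes in that list were those of the pseudouridine synthase family member Rpusd3, at -1.07 and -1.32.

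Genes of the respiratory chain, whose core subunits this ribosome makes, had larger median falls. Nuclear genes named as complex I subunits, taken by their Nduf symbols, were lower in 36 of 37 cases under both labels. Their median was -1.34 in SMOC2-labelled and -1.24 in wild-type kidneys, and the gene not called was Ndufa4l2 (0.499 and 0.626). Nuclear subunits of complexes II to V were lower in 43 of 45 and 42 of 45 cases, with 1 higher under each label and medians of -1.45 and -1.33. The 7 mitochondrially encoded protein genes that were tested all fell, with medians of -1.72 and -1.54, although the kit selects polyadenylated RNA and their counts depend on that. Cytosolic ribosomal proteins went the other way in their medians, at 0.245 and 0.335. In SMOC2-labelled kidneys 34 of 81 were higher, 1 was lower and 46 were not called, where 32.5% of all genes were higher. In wild-type kidneys 50 of 81 were higher, 1 was lower and 30 were not called, where 31.3% of all genes were higher.

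Regulators of mitochondrial gene expression split. Ppargc1a, a coactivator of mitochondrial biogenesis, averaged 55.6 ± 5.95 CPM in SMOC2-labelled UUO and 57.7 ± 6.54 CPM in wild-type UUO libraries (SD, n = 4 each), against 118 ± 25.4 CPM in SMOC2-labelled normal and 146 ± 26.9 CPM in wild-type normal libraries (SD, n = 3 each). Ppargc1a, Ppargc1b, Esrra and Gabpa fell under both labels, with Gabpa, the DNA-binding part of an ETS factor, at -0.271 in SMOC2-labelled and -0.344 in wild-type kidneys. Myc, Pprc1 and Nrf1 rose under both, with Nrf1 at 0.229 and 0.224 and Myc at 2.75 and 2.90. Of 12 genes for transcription and replication of mitochondrial DNA, 5 were lower and 1 higher in SMOC2-labelled kidneys and 6 lower in wild-type kidneys. The shares of all genes called lower were 30.4% and 29.8%. Tfam, which packages mitochondrial DNA, changed by -0.783 and -0.695. Mitochondrial import, pore and chaperone genes were lower in 18 of 18 cases in SMOC2-labelled and 16 of 18 in wild-type kidneys.

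**Figure D3:**
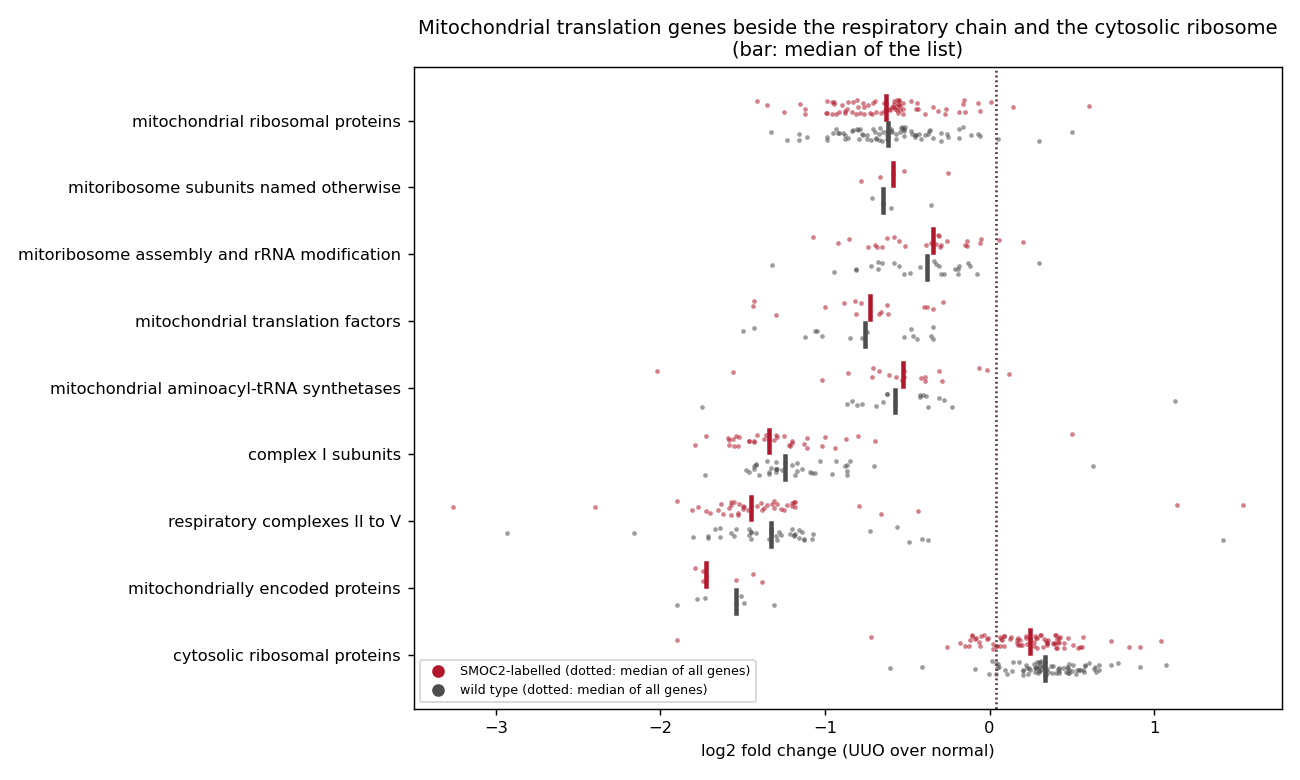
Log2 change (UUO over normal) of every tested gene in the mitochondrial ribosomal protein set and in comparison lists, for SMOC2-labelled and wild-type kidneys, with the median of each list marked. The members centre on -0.632 and -0.618, between the nuclear respiratory chain lists, with medians of -1.45 to -1.24, and the cytosolic ribosomal proteins at 0.245 and 0.335.

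Summed over all members, the level was 2510, 2574, 2828 and 2553 CPM in SMOC2-labelled UUO and 2489, 2670, 2539 and 2595 CPM in wild-type UUO libraries, against 3918, 4424 and 4252 CPM in SMOC2-labelled normal and 3821, 4392 and 3771 CPM in wild-type normal libraries. No UUO library reached a normal one. The mean after UUO was 0.623 of the normal mean in SMOC2-labelled and 0.644 in wild-type kidneys with TMM scaling, and 0.881 and 0.894 when libraries were scaled by total counts alone.

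Ratios within a library do not depend on the scaling. Per 100 CPM of nuclear respiratory chain subunits, the members held 23.7 ± 0.333 CPM in SMOC2-labelled UUO and 23.2 ± 1.92 CPM in wild-type UUO libraries (SD, n = 4 each), against 13.6 ± 0.543 CPM in SMOC2-labelled normal and 13.7 ± 0.315 CPM in wild-type normal libraries (SD, n = 3 each). Per 100 CPM of cytosolic ribosomal proteins they held 13.3 ± 0.475 CPM in SMOC2-labelled UUO and 13.2 ± 0.908 CPM in wild-type UUO libraries, against 25.3 ± 1.16 CPM in SMOC2-labelled normal and 26.5 ± 0.739 CPM in wild-type normal libraries. In every UUO library the members were thus higher relative to the respiratory chain and lower relative to the cytosolic ribosome than in any normal library. The ratio of large-subunit to small-subunit CPM stayed between 2.337 and 2.442 in all 14 libraries.

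**Figure D4:**
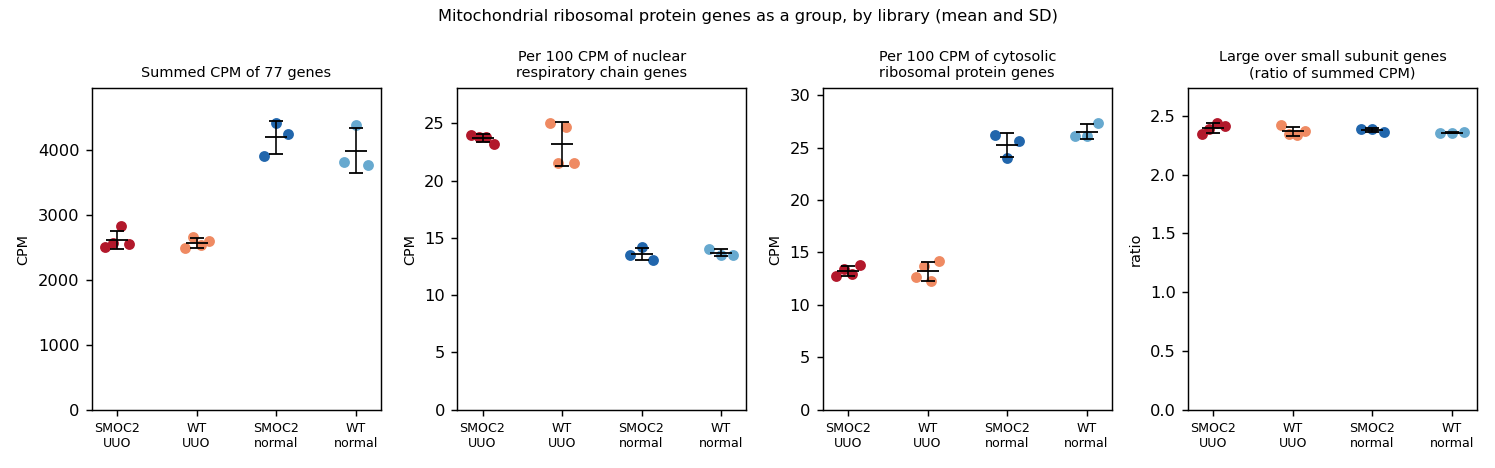
Summed CPM of the members, and the members' CPM per 100 CPM of nuclear respiratory chain subunits and of cytosolic ribosomal proteins, in each library with group means and SD. UUO libraries lie at 2489 to 2828 summed CPM and normal libraries at 3771 to 4424, while the ratio to the respiratory chain is higher in every UUO library.

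Markers of kidney cell types moved with these changes. In bulk tissue, fewer cells of a type and less RNA per cell cannot be told apart. All 12 proximal tubule markers were lower after UUO under both labels, and their summed level was 3760 to 5169 CPM in SMOC2-labelled UUO and 2217 to 5591 CPM in wild-type UUO libraries, against 28087 to 32731 CPM in SMOC2-labelled normal and 26457 to 29910 CPM in wild-type normal libraries. Of 11 macrophage markers, 10 rose in SMOC2-labelled and 11 in wild-type kidneys, and their sum was 1751 to 2796 CPM and 2268 to 2457 CPM after UUO, against 244 to 293 CPM and 243 to 273 CPM in the normal groups. All 9 fibroblast markers rose, with sums of 3734 to 5095 CPM in SMOC2-labelled UUO and 2837 to 5027 CPM in wild-type UUO libraries, against 193 to 391 CPM in SMOC2-labelled normal and 256 to 582 CPM in wild-type normal libraries. Under both labels 7 of 8 markers of the loop of Henle and distal tubule fell, as did 7 of 8 collecting duct markers with 1 higher and 3 of 5 podocyte markers with 1 higher. Of 7 endothelial markers, 3 fell under both labels and 1 rose in SMOC2-labelled kidneys. Beside these counts, 30.4% of all genes were lower and 32.5% higher in SMOC2-labelled kidneys, and 29.8% lower and 31.3% higher in wild-type kidneys. Of 9 lymphocyte markers 8 rose in SMOC2-labelled and 7 in wild-type kidneys. All 6 markers of cycling cells rose too, and no defining marker of any list had a group mean of 0. The part of these shifts in the change of the members was not tested.

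Between the genotype labels no member passed the test. After UUO, 0 of 77 members differed between SMOC2-labelled and wild-type kidneys, where 0.831% of all genes did, and 10 members had an unadjusted edgeR p under 0.05, beside 15.2% of all genes. DESeq2 called 0 members with 9 at an unadjusted p under 0.05, and limma-voom called 0 with 10. The median log2 difference was 0.0235. All SMOC2-labelled UUO libraries lay above all wild-type UUO libraries for 7 members and below for 1, where 5.42% and 4.43% of all genes did so.

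In normal kidneys 0 of 77 members differed between labels, beside 0.0279% of all genes, and 7 members had an unadjusted edgeR p under 0.05, beside 12.8% of all genes, with 8 in DESeq2 and 8 in limma-voom, neither of which called any. The median difference was 0.063, and all SMOC2-labelled libraries lay above all wild-type ones for 6 members and below for 3, against 8.84% and 8.01% of all genes. The interaction, which asks whether the change after UUO differed between the labels, called 0 members and 0% of all genes, with 3 members at an unadjusted p under 0.05 in edgeR, DESeq2 and limma-voom alike, beside 6.44% of all genes in edgeR, and a median of -0.0419.

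The members at the ends of these comparisons show how large a difference the data leave possible. Mrps34 had the highest difference in both states, 0.33 after UUO (95% interval 0.05 to 0.61, edgeR adjusted p = 0.241) and 0.32 in normal kidneys (adjusted p = 0.388). Mrps27, a pentatricopeptide-repeat protein of the small subunit, was at 23.3, 26.9, 23.2 and 20.4 CPM in SMOC2-labelled UUO libraries, against 19.6, 18.5, 17.6 and 19.5 CPM in wild-type UUO libraries. These groups did not overlap, and the difference was 0.32 (95% interval 0.05 to 0.58, adjusted p = 0.236). Of the Mrps27 exon bases, 24.2% lie antisense to 6430562O15Rik. Mrpl9, a bacterial-type large-subunit protein, was at 35.9, 34.8, 40.7 and 36.1 CPM in SMOC2-labelled UUO libraries, against 41.6, 42.6, 44.9 and 44.6 CPM in wild-type UUO libraries. Its difference was -0.24 (95% interval -0.41 to -0.06, adjusted p = 0.178), and that of Mrps9 was -0.20 (adjusted p = 0.311).

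In normal kidneys Mrpl4 averaged 104 ± 4.50 CPM in SMOC2-labelled and 84.3 ± 4.47 CPM in wild-type libraries (SD, n = 3 each), a log2 difference of 0.30 (95% interval 0.12 to 0.49, edgeR adjusted p = 0.262). The lowest differences there were -0.14 for both Mrpl33 and Mrpl46 (adjusted p = 0.65 and 0.734). For the interaction, Mrps28 was at 15.1, 14.7, 16.3 and 14.3 CPM in SMOC2-labelled UUO and 16.6, 15.6, 17.2 and 17.1 CPM in wild-type UUO libraries, against 27.0, 28.7 and 23.6 CPM in SMOC2-labelled normal and 23.3, 25.7 and 19.3 CPM in wild-type normal libraries. Its interaction term was -0.35 (95% interval -0.67 to -0.04, adjusted p = 0.735). Mrpl28 followed at -0.32 (95% interval -0.55 to -0.08, adjusted p = 0.673), and at the other end were Mrpl10 at 0.24 (95% interval 0.01 to 0.46, adjusted p = 0.755) and Mrpl39 at 0.22 (adjusted p = 0.789).

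Many members start close to a neighbour on the opposite strand. A head-to-head pair, with starts at most 1000 bases apart on opposite strands, was found for 31 of the 77 tested members (40.3%), against 2065 of 15187 tested protein-coding genes (13.6%). This rule also takes in pairs whose first parts overlap, so that no DNA lies between them. Mrpl46 and Mrps11 are each other's neighbour and both fell. They overlap, with 12.2% of the Mrpl46 and 7.97% of the Mrps11 exon bases antisense to the other gene. Their counts are therefore uncertain without the strand setting of the counting. Over these pairs the partner genes had a median log2 change of -0.297 in SMOC2-labelled and -0.141 in wild-type kidneys. In SMOC2-labelled kidneys 16 partners were lower and 7 higher, where 30.4% of all genes tested were lower and 32.5% higher. In wild-type kidneys 15 partners were lower and 8 higher, where 29.8% of all genes were lower and 31.3% higher. Mrpl46 and Mrps11 are counted among these partners although they are members themselves.

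A member and its partner could move apart although their starts lie close together. Mrpl57, a small mitochondria-specific protein whose start lies 49 bases from that of the spindle and kinetochore gene Ska3, changed by -0.832 in SMOC2-labelled and -0.60 in wild-type kidneys, while Ska3 changed by 3.08 and 1.65. Mrpl27, 197 bases from the DNA repair endonuclease gene Eme1, changed by -0.764 and -0.722, and Eme1 by 3.15 and 2.21. These genes overlap, with 7.61% of the Mrpl27 exon bases antisense to Eme1. Mrpl51, 100 bases from the condensin gene Ncapd2, changed by -0.861 and -0.67, and Ncapd2 by 1.18 and 0.749. Mrpl30, 66 bases from Mitd1, which acts in the last step of cell division, changed by -0.583 and -0.597, and Mitd1 by 0.69 and 0.706. All 8 of these changes per label passed the edgeR test over all genes. Markers of cycling cells rose in the same libraries, as given above, and their part in the partners' change was not tested.

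Other pairs fell together, or the partner alone fell. Mrps12 starts 172 bases from Sars2, the mitochondrial seryl-tRNA synthetase, which changed by -0.529 in SMOC2-labelled and -0.405 in wild-type kidneys. Mrpl47 starts 615 bases from Ndufb5, a complex I subunit, which changed by -1.34 and -1.33, but 24.2% of the Mrpl47 exon bases lie antisense to neighbours that include Ndufb5. Mrpl36, which was not called, starts 29 bases from Ndufs6, another complex I subunit, which changed by -1.20 and -1.14. These genes overlap, with 2.58% of the Mrpl36 exon bases antisense to Ndufs6. Mrps27, not called either with all libraries, starts 81 bases from Ptcd2, a mitochondrial RNA-binding protein gene, which changed by -0.76 and -0.721. Mrps27 itself was called lower when SMOC2-labelled normal replicate 1 was left out (-0.427, edgeR adjusted p = 0.00657, against -0.268 with it) or wild-type normal replicate 3 (-0.379, adjusted p = 0.0429, against -0.293).

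**Figure D5:**
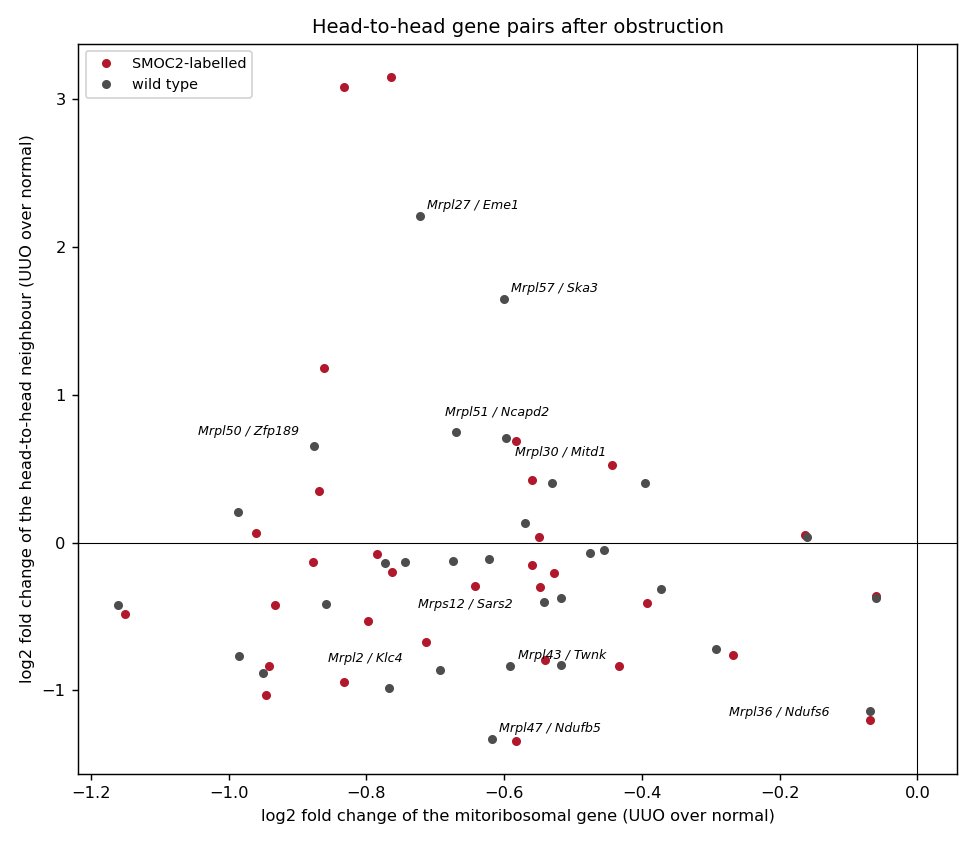
Log2 change (UUO over normal) of each head-to-head partner against that of its member, in SMOC2-labelled and wild-type kidneys. Members cluster between -1.16 and 0 on the x axis, while partners spread on the y axis from -1.34 for Ndufb5 to 3.15 for Eme1.

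The DNA between the starts is shown for 4 of these pairs, chosen because it is short and because the pairs cover partners that moved apart, together or alone. All stretches are from RefSeq windows of GRCm38.p6, written 5′ to 3′ in the direction of the member. They are chr14:57826186-57826233 (plus strand) for Mrpl57 and Ska3, chr1:37890412-37890476 (plus strand) for Mrpl30 and Mitd1, chr7:28741822-28741991 (minus strand) for Mrps12 and Sars2, and chr13:99344706-99344785 (plus strand) for Mrps27 and Ptcd2. Capitals mark the ETS core as CTTCCGG, the reverse complement of CCGGAAG, which is in the last stretch.
Mrpl57 and Ska3: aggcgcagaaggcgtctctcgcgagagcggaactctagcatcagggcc
Mrpl30 and Mitd1: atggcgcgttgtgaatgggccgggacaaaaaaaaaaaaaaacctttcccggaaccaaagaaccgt
Mrps12 and Sars2: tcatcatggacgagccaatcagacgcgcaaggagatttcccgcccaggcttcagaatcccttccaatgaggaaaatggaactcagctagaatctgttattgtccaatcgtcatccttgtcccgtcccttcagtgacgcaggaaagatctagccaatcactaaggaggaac
Mrps27 and Ptcd2: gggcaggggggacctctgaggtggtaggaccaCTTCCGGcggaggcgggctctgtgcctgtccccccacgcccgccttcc

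Across the set, promoter windows of 69 members were found in RefSeq, running from 250 bases before the start. The ETS core CCGGAAG, searched on both strands, was in the windows of 18 of the 69 members (26.1%), against 7.83% of 27025 genes. This background is every gene with a RefSeq window, not limited to the genes tested here as the head-to-head share was. The NRF1 letters GCGC, AT and GCGC in direct succession were in only 3 of the 69 members (4.35%), against 0.877% of all genes. The YY1 letters AAGATGGC were in only 4 (5.8%), against 1.83%. The E-box CACGTG, read by MYC among others, was in 5 members (7.25%), against 6.86% of all genes. The ETS core ends and the YY1 letters start with AAG, so these 2 can overlap in principle. Among the members they did not, since Mrpl32, Mrpl36, Mrps11 and Mrps12, which hold the YY1 letters, lacked the ETS core. Member windows were also richer in G and C, with a median of 58.4% against 52.4% over all windows.

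Members with and without the ETS core had close medians. The 17 tested members with it had a median log2 change of -0.659 in SMOC2-labelled and -0.622 in wild-type kidneys, and 15 and 14 of them fell. The 51 without it had medians of -0.607 and -0.60, and 44 and 42 of them fell. These are descriptions of letters in a fixed window and do not show binding.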

How the data were processed

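Polyadenylated RNA from frozen mouse kidney was sequenced in 14 libraries with a stranded kit, per the labels' protocols. Each deposited file lists whole-number counts of 1 library, which the authors neither normalized nor pooled. Listed in the submitters' processing notes are build mm10, featureCounts 1.4.4 of Subread and STAR 2.4.1d. Strand setting and annotation: not given in the sources used here. Members that overlap another gene are therefore uncertain, also those whose overlap is not given above. Gene symbols and coordinates came from GENCODE M21 (GRCm38). It matched 47310 identifiers, and the other 419 held 0.0288% of counts. Pseudogene rows with an Mrpl or Mrps symbol held 809 counts over all libraries and were left out. No 2 libraries were identical.

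In R 4.3.3, edgeR 4.0.16 (TMM, filterByExpr, glmQLFit and glmQLFTest) fitted 4 group means to all 14 libraries. It tested 5 comparisons, and p-values were adjusted over 17926 genes. The procedure was tested on simulated data. Alternatives used DESeq2 1.42.0, limma 3.58.1 (voom), other scalings and filters, the replicate number as a block, and each library left out. The reads carry no molecular identifiers, so precision beyond the spread between libraries was not assessed. Members, gene lists and rules were chosen with earlier results of these data known. Per UUO comparison the 6 members with the most negative and the 6 with the most positive changes were named, with the highest and lowest 4 per kilobase and members of known role. For the genotype comparisons and the interaction, in which no member passed, only the 2 at each end were named.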

Additional observations from a re-analysis of the deposited data

Results flagged for a closer look

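Dixon's criterion for a value that stands apart in a group of 4, at 95%, was met 3 times among 76 groups, and chance meets it in about 1 of 20. Mrps35 was at 35.42 CPM in SMOC2-labelled UUO replicate 3, apart from 27.84, 28.17 and 28.68 CPM in the other 3 libraries of that group. In the same library the members took 0.327% of all counts, against 0.291%, 0.291% and 0.292% in the others. Mrpl19 was at 20.3 CPM in wild-type UUO replicate 3, below 22.61, 22.62 and 22.84 CPM in the other 3 libraries.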

How the results depend on the processing

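Without any 1 library, members lower numbered 63 to 68 in SMOC2-labelled and 63 to 67 in wild-type kidneys, members higher 1 and 1 to 2, the medians -0.68 to -0.584 and -0.654 to -0.525, and the UUO over normal ratio of summed CPM 0.603 to 0.642 and 0.626 to 0.677. The same ratio per 100 CPM of the respiratory chain ran from 1.71 to 1.78 and from 1.65 to 1.73. In wild-type kidneys 2 members were higher, Mrpl52 joining Mrpl33, under upper-quartile scaling, without mitochondrially encoded genes, with at least 50 counts in 3 libraries, with DESeq2, with limma-voom, with the replicate block and with only the groups compared. Upper-quartile scaling gave medians of -0.517 and -0.506 and summed ratios of 0.675 and 0.696. Total counts with no scaling factor, chosen after seeing the data, gave 9 higher and 31 lower with a median of -0.131 in SMOC2-labelled, 10 higher and 28 lower with a median of -0.149 in wild-type kidneys, and summed ratios of 0.881 and 0.894. The cause was not tested beyond the shift of all genes. Over all 77 members, total counts turned the sign of 15 in SMOC2-labelled kidneys, 8 of them called lower with TMM, and of 20 in wild-type kidneys, 10 of them called. Mrpl24 and Mrpl45 were among those then called higher under both labels. Among the members given with values above, those that reversed were as follows, on the log2 scale. Under upper-quartile scaling Mrpl36 was 0.0459 and Mrps18b 0.0545 in SMOC2-labelled kidneys, and Mrpl19 was 0.00144, Mrpl36 0.0432 and Mrps18b 0.0515 in wild-type kidneys. Under total counts, SMOC2-labelled kidneys gave Mrpl23 0.347, Mrpl36 0.432, Mrpl54 0.0673, Mrps10 0.346, Mrps18b 0.439, Mrps18c 0.107 and Mrps27 0.233. Wild-type kidneys gave Mrpl19 0.36, Mrpl23 0.22, Mrpl36 0.403, Mrpl48 0.0153, Mrpl9 0.129, Mrps18b 0.412, Mrps18c 0.104, Mrps27 0.178, Mrps28 0.0216 and Mrps9 0.102. Leaving out 1 library turned uncalled values, whose ranges were -0.0156 to 0.0687 for Mrpl19, -0.166 to 0.0186 for Mrpl36 and -0.271 to 0.0404 for Mrps10 in SMOC2-labelled kidneys, -0.114 to 0.016 for Mrpl36, -0.0549 to 0.126 for Mrps10 and -0.131 to 0.0503 for Mrps18b in wild-type kidneys, and -0.246 to 0.00994 for Mrpl46 between labels in normal kidneys. Deviations of same-numbered libraries correlated weakly at most (-0.0898 to 0.132). Some same-numbered pairs correlated better than the other pairings and some did not. With so few libraries this does not settle whether the numbers pair them. The replicate block gave 68 members lower in SMOC2-labelled and 65 in wild-type kidneys and turned Mrpl19 to -0.0152 in SMOC2-labelled kidneys. Between the labels and for the interaction, 0 members were called under every alternative run.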
